A study of Mus musculus with 6 samples.

Results

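The endothelin system was followed through 5 genes of 32285 in the count table, picked by symbol: the ligand genes Edn1 and Edn3, the receptor genes Ednra and Ednrb, and Ece1, the gene of an enzyme that activates the ligands. They were described in 17357 cells of 6 libraries. The cells came from the cortex of male mice aged 8 to 12 weeks, and 6 groups were made, from the side of a permanent middle cerebral artery occlusion (ipsi) and the opposite side (contra), each at 1, 12 and 24 h. Every mouse, in contra and ipsi groups alike, was RGS5::GFP het, so that 1 Rgs5 allele was replaced by a GFP reporter driven from the Rgs5 promoter and only the other allele could give Rgs5 RNA. Live non-neuronal cells were taken, with 1 library of 10x 3′ counts per group. The libraries are told apart in the table by a number from 1 to 6, and nothing in the sources used here says which group a number stands for. No value below is therefore given to a hemisphere or a timepoint, no difference between libraries has a replicate check, and no p-value was computed. The labels also name different kits and sequencing runs for the timepoints, so a difference between library numbers cannot be told apart from one of kit or run.

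Endothelins are short vasoactive peptides that are cut from longer precursors. Endothelin-converting enzyme, encoded by Ece1, is a membrane metalloprotease that makes the last cut. The mature peptides act on a pair of G protein-coupled receptors. The A receptor (Ednra) on contractile vessel cells raises calcium and constricts the vessel, and prefers endothelin-1 (Edn1) to endothelin-3 (Edn3). The B receptor (Ednrb) binds all endothelins about equally, removes the peptide from the circulation, promotes nitric oxide release where endothelium carries it, and is known in brain from astrocytes.

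By annotation on GRCm38, all 5 are protein-coding genes. Edn1 lies at chr13:42301476-42307990 on the plus strand, Edn3 at chr2:174760619-174784042 on the plus strand, Ednra at chr8:77663031-77724464 on the minus strand, Ednrb at chr14:103814625-103844402 on the minus strand and Ece1 at chr4:137862237-137965229 on the plus strand. Gm47118 overlaps Edn1, 4933431K23Rik overlaps Ednra and Gm13012 overlaps Ece1, each on the other strand. No annotated gene overlaps a member on its own strand.

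A level is given in CPM, the UMIs of the gene summed over the cells of a class, divided by all UMIs of those cells and scaled to 1000000. A UMI is a random tag put on a captured RNA molecule, so that its copies count as 1. Intervals are exact and at 95%, and they cover counting error only, so they do not show how much animals or cells differ. They take each UMI as independent, also where few cells hold most UMIs of a gene, and can be too narrow there. A low CPM can come from fewer cells that use a gene or from less RNA in each, and shares of cells with a UMI are given for that reason. Levels are compared between cells for 1 gene, never between genes.

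The cells had a median of 5338 UMIs, and the libraries held 1221 to 5873 cells each. Cell classes were named by markers, written here with "-like": 2664 endothelial-like, 782 pericyte-like, 171 smooth muscle-like and 31 fibroblast-like cells among the vascular classes, 1168 astrocyte-like, 2787 oligodendrocyte-like and 338 neuroblast-like cells, and 8130 microglia-like, 375 monocyte-derived macrophage-like, 258 perivascular macrophage-like, 178 neutrophil-like, 95 T lymphocyte-like and 55 B lymphocyte-like cells. Class II genes (H2-Eb1, H2-Ab1) were the top genes of the perivascular macrophage-like cells, ahead of Mrc1, so that this class may hold other antigen-presenting cells. A further 58 mural cells formed a response subcluster, picked by the chemokine and metallothionein genes Ccl7, Cxcl1, Mt1, Ccl11 and Cxcl2, and kept as a class of its own. It came from libraries 4 (23 cells) and 6 (35 cells). All 8 pericyte markers were detected in it and all were lower than in the other pericyte-like cells, from Kcnj8 with 1661 against 1770 CPM to P2ry14 with 97.5 against 1436 CPM. Their sum was 12857 CPM in library 4 and 9328 CPM in library 6, against 37018 and 25995 CPM in the other pericyte-like cells of those libraries. Its next best marker score was that of fibroblasts, with the fibroblast gene Dcn among its leading genes and 7 fibroblast markers summing to 223 CPM in library 4 and 2592 CPM in library 6. Another 267 cells stayed unnamed. In all, 26 barcodes were found in more than 1 library, in 52 cells or 0.300% of all cells.

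The system was split between cell types. Edn1 was an endothelial-like RNA with a second, lower level in microglia-like cells, Edn3 was found in fibroblast-like and endothelial-like cells, Ednra in mural cells, Ednrb in the response subcluster and astrocyte-like cells, and Ece1 in pericyte-like, fibroblast-like and endothelial-like cells. Of all UMIs of a gene, endothelial-like cells held 68.1% for Edn1, 86.5% for Edn3 and 58.6% for Ece1, while they held 0.746% for Ednra and 1.69% for Ednrb. Over all genes with at least 50 CPM in a class, 12.8% had a highest class at least 4 times above the next on the CPM + 10 scale. Edn1 (7.93 on that scale), Edn3 (6.55) and Ednrb (8.94) passed this rule, and Ednra (1.90) and Ece1 (1.04) did not.

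**Figure D1:**
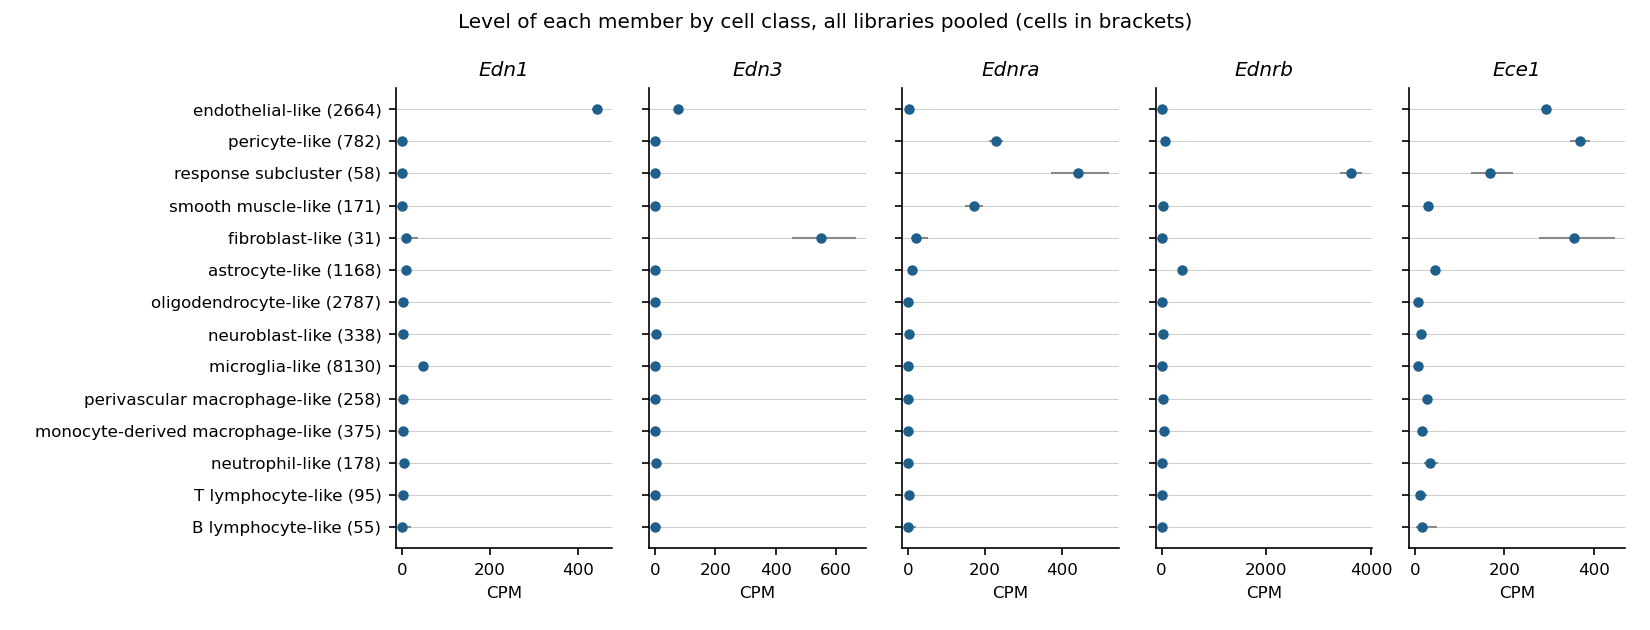
CPM of each member (horizontal axes, linear, 1 scale per gene) in the 14 cell classes, all libraries pooled, with exact 95% intervals for counting error; the number of cells stands in brackets. Edn1 peaks in endothelial-like cells (444 CPM), Edn3 in fibroblast-like cells (551 CPM), Ednra and Ednrb in the response subcluster (444 and 3609 CPM), and Ece1 has 368, 354 and 292 CPM in pericyte-like, fibroblast-like and endothelial-like cells.

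Edn1 encodes endothelin-1, the main vasoconstrictor peptide of endothelium. In endothelial-like cells its level was 444 CPM (432 to 456), from 5185 UMIs. Microglia-like cells followed at 47.2 CPM (45.2 to 49.3), so that the endothelial-like level was 9.40 times higher (8.94 to 9.89). Fibroblast-like cells had 10.1 CPM from 2 UMIs in 1 cell, and astrocyte-like cells 8.38 CPM. All other classes lay at 4.40 CPM or lower, and from fibroblast-like cells downward no neighbours in the order of classes differed beyond counting error. Mural cells were nearly without it: 2 UMIs were found in 782 pericyte-like cells and 1 UMI in 171 smooth muscle-like cells. None was found in the 58 cells of the response subcluster, where 0 UMIs allow a share of up to 5.17% of cells with a UMI at this depth, which sets no limit on cells that use the gene.

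Endothelial-like cells were the highest class for Edn1 in each of the 6 libraries. Libraries 1 to 6 had 448, 374, 223, 341, 575 and 617 CPM there. Library 6 was 2.77 times library 3 (2.53 to 3.03), and libraries 5 and 6 stood above the other 4. For comparison, 21.1% of all genes tested in endothelial-like cells had a highest library at least 2 times the lowest on the CPM + 10 scale, and Edn1 passed this rule with 2.69, Edn3 with 4.0 and Ednrb with 2.05. The sum of the 8 endothelial markers ranged from 14678 CPM in library 6 to 20357 CPM in library 3, the inverse of Edn1 at both ends, and the part of this in the Edn1 values was not tested.

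The endothelial-like Edn1 RNA sat in a minority of cells. A UMI was found in 862 of 2664 cells (32.4%), and 294 cells with at least 5 UMIs held 79.8% of all Edn1 UMIs of the class. A single cell held up to 87. After every cell was thinned to 1000 UMIs, so that depth could not set the share, 17.8% of endothelial-like, 2.85% of microglia-like, 0.215% of oligodendrocyte-like and 1.05% of T lymphocyte-like cells (1 of 95) had an Edn1 UMI. The unthinned shares in the last 2 classes were 0.574% and 1.05%, at median depths of 8871 and 4707 UMIs against 4001 UMIs in endothelial-like cells. Microglia-like and T lymphocyte-like cells had been named as classes that should lack the gene, and the microglia-like share was the higher of these. Oligodendrocyte-like cells had not been named for this and were set beside them as a further comparison.

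Re-clustering of the endothelial-like cells, from which the members were left out, gave 13 subclusters. A subcluster of 248 cells carried arterial markers (Bmx, Gkn3, Mgp) and was called arterial-like. Another subcluster, of 95 cells, carried venous markers (Ackr1, Vcam1, Slc38a5) and was called venous-like. Arterial-like cells had 966 CPM of Edn1 (914 to 1021) and venous-like cells 188 CPM (155 to 226). Subcluster 7, led by Plvap and the immediate early genes Fosb, Atf3, Fos and Egr1, reached 910 CPM, with intervals that overlapped those of the arterial-like cells. Subcluster 3, led by Apln, Hmox1 and Angpt2, had 717 CPM, and 95.2% of its 331 cells came from library 6. The lowest level was 90.9 CPM in the 410 cells of subcluster 0, led by Bok and Slc16a9, 10.6 times below the arterial-like cells (8.998 to 12.6). At a coarser resolution of 0.4 the highest subcluster was 5.26 times the lowest.

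Arterial-like cells were not uniform between libraries. In the libraries with at least 20 such cells, Edn1 was at 544 CPM in library 3, 1198 in library 4, 1411 in library 5 and 989 in library 6. Subcluster 7 had 468, 1188 and 1848.5 CPM in libraries 3, 5 and 6, but 1 of the 24 cells of library 6 held 87 UMIs, and without it the level there was 1047 CPM. Library 3 was the lowest in both. Library 4 was above library 3 by a wide margin in arterial-like cells, while in subcluster 0 its 144 cells had 88.2 CPM and those of library 3 had 96.2 CPM.

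**Figure D2:**
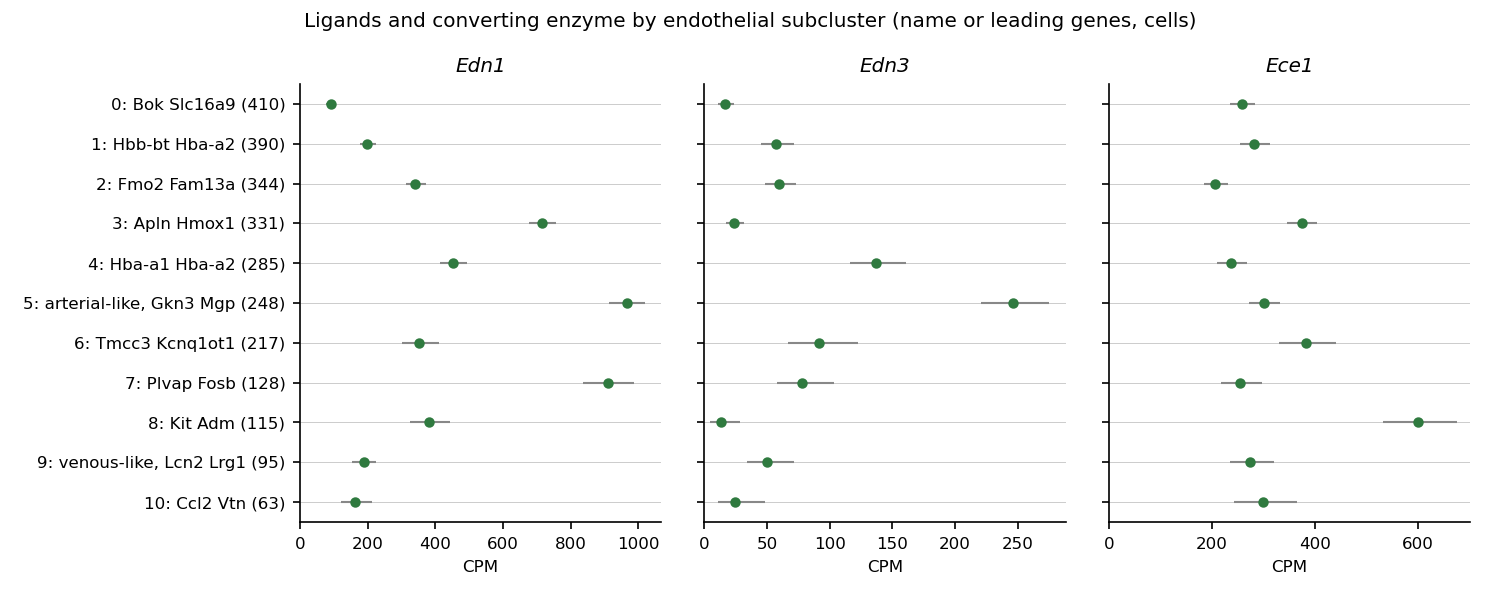
CPM of Edn1, Edn3 and Ece1 (horizontal axes, linear) in the endothelial subclusters with at least 50 cells, with exact 95% intervals for counting error; each line gives the subcluster number, its name where markers gave one, its leading genes and its cells. Edn1 and Edn3 have their highest point in arterial-like cells (966 and 247 CPM), for Edn1 with an interval that overlaps that of subcluster 7. Ece1 is highest in subcluster 8 (600 CPM).

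In microglia-like cells, libraries 1 to 6 had 32.8, 24.96, 34.9, 46.9, 31.6 and 104 CPM of Edn1. Library 6 was 4.15 times library 2 (3.09 to 5.68), and the other 5 lay between 24.96 and 46.9 CPM. Of all genes tested in microglia-like cells, 12% had a highest library at least 2 times the lowest on the CPM + 10 scale, and of the members Edn1 alone did so (3.25). By cluster the level was 87.0 CPM in the 1401 cells of cluster 5, led by Lpl, Ccl12, Mmp12 and Spp1, and 20.6 CPM in the 2394 cells of cluster 0, led by Hbb-bt, P2ry12 and Gpr34. Clusters 1, 3 and 20 had 51.7, 31.5 and 63.6 CPM, the last 9.69 CPM without its top cell. Within cluster 5, library 4 had 59.6 CPM (53.4 to 66.3) and library 6 had 127 CPM, so the libraries differed within 1 cluster too. Cluster 1 had 69.98 CPM (59.9 to 81.3) in library 4 and 37.5 CPM in library 6. The lead of cluster 5 was thus not seen in library 4. The UMIs were again held by few cells: 95 of 8130 cells, with at least 5 UMIs each, held 53.8%, and a single cell of library 6 held 77, without which that library had 91.6 CPM.

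Endothelial RNA was measured beside the microglia-like values. The 8 endothelial markers summed to 20.5 CPM in the 728 microglia-like cells with an Edn1 UMI and to 29.6 CPM in the 7402 without, against 17535 CPM in endothelial-like cells. Nos3, the endothelial nitric oxide synthase gene, was 319 times higher in endothelial-like than in microglia-like cells, with 163 against 0.511 CPM, where Edn1 was 9.40 times higher. Within libraries the endothelial-like level of Edn1 was from 5.97 times the microglia-like one in library 6 to 18.2 times in library 5. In barcodes with 1 to 50 UMIs, which hold free RNA, Edn1 was at 13.5 to 48.7 CPM, highest in library 5. Such a CPM is a share of the free RNA alone and not of the RNA in a cell.

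Edn3, the ligand gene that is best known from the development of enteric neurons and pigment cells together with Ednrb, had 2 places. The 31 fibroblast-like cells had 551 CPM (453 to 665), from 109 UMIs in 23 of the cells, and endothelial-like cells had 75.7 CPM (70.8 to 80.8), from 884 UMIs. The ratio was 7.29 (5.92 to 8.90). No library held 20 fibroblast-like cells, so the value has no breakdown by library. Every other class had 1.47 CPM or less, and 0 UMIs were found in smooth muscle-like, oligodendrocyte-like, monocyte-derived macrophage-like, T lymphocyte-like and B lymphocyte-like cells and in the response subcluster. When classes under 50 cells were left out, endothelial-like cells came first, 51.6 times above neutrophil-like cells, whose level rests on 1 UMI (interval of the ratio 9.24 to 2042).

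Libraries 1 to 6 had 113, 76.4, 52.9, 26.6, 136 and 65.7 CPM of Edn3 in endothelial-like cells. Library 5 was 5.13 times library 4 (3.81 to 7.04). Libraries 5 and 1 had the highest values, and those of libraries 1 and 2 rest on 66 and 48 UMIs. Among subclusters the arterial-like cells were again the highest, with 247 CPM (221 to 275) and a UMI in 44.8% of them, followed by subcluster 4 with 137 CPM. Subcluster 3, which had 717 CPM of Edn1, had 23.5 CPM of Edn3, and subcluster 0 had 16.3 CPM. In arterial-like cells of libraries 3 to 6 the level was 146, 69.9, 420 and 350 CPM, so the library with the second highest Edn1 level in these cells, library 4, had the lowest Edn3 level. In thinned cells of all libraries pooled, an Edn3 UMI was found in 10.5% of endothelial-like cells with an Edn1 UMI (50 of 475, interval 7.91 to 13.6%) and in 5.34% of those without (4.44 to 6.37%). The share was higher with Edn1 in libraries 1 to 5, but the intervals were apart only in library 5 (19.0% against 9.31%). Library 6 had 5.04% against 5.08%.

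**Figure D3:**
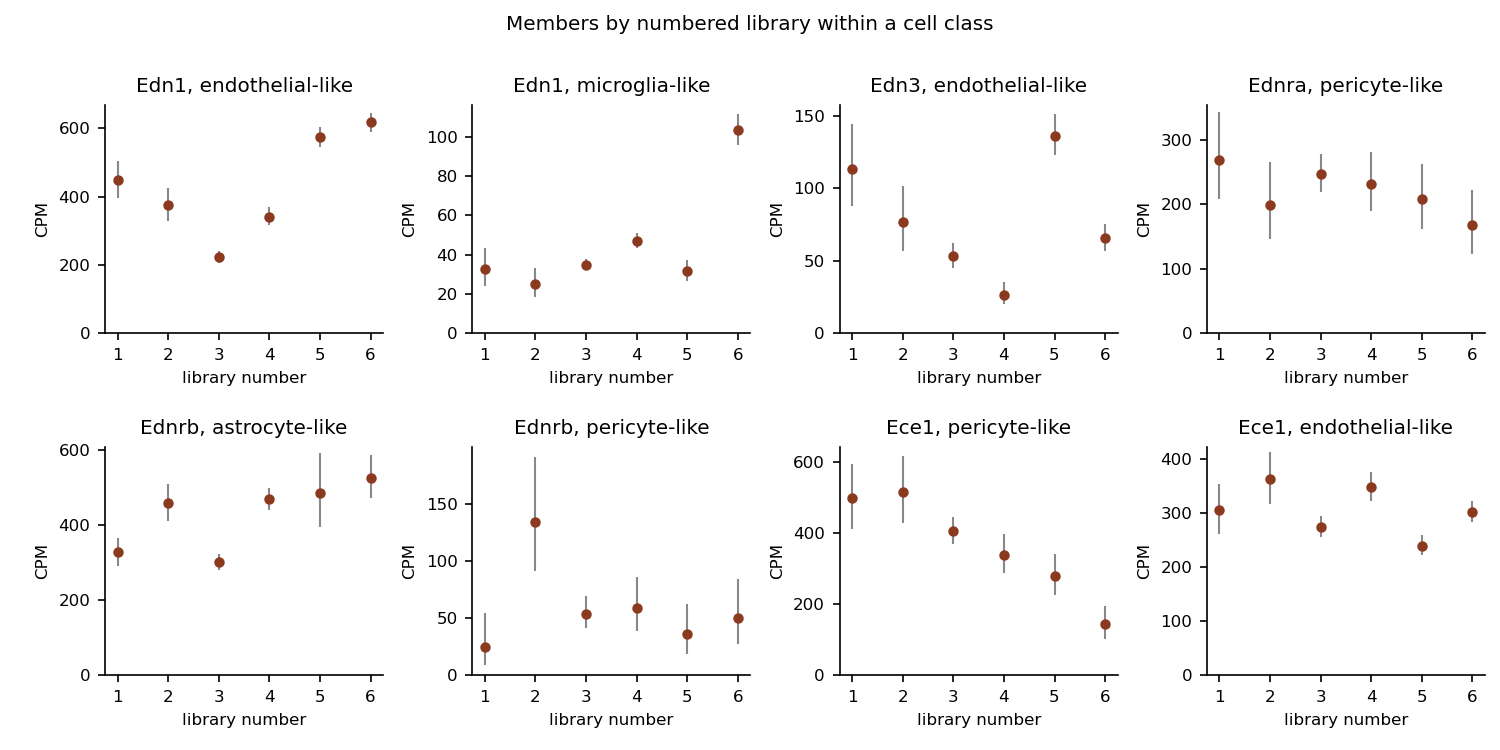
CPM (vertical axes, linear from 0) of members within a cell class in the libraries numbered 1 to 6, with exact 95% intervals for counting error; the numbers stand for groups that the sources used here do not name. Edn1 in microglia-like cells is highest in library 6 (104 CPM), Edn3 in endothelial-like cells in library 5 (136 CPM), and Ece1 in pericyte-like cells is lowest in library 6 (142 CPM).

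Ednra, the constrictor receptor, was a mural RNA. The response subcluster had 444 CPM (373 to 523), the other pericyte-like cells 229 CPM (211 to 248) and smooth muscle-like cells 170 CPM (148 to 194). Fibroblast-like cells followed at 20.2 CPM, from 4 UMIs, and astrocyte-like cells at 9.07 CPM. Endothelial-like cells, with 9 UMIs in 2664 cells, were 297 times below pericyte-like cells. No Ednra UMI was found in perivascular macrophage-like, monocyte-derived macrophage-like, neutrophil-like or B lymphocyte-like cells, and 2 were found in 8130 microglia-like cells.

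In pericyte-like cells the level varied little. Libraries 1 to 6 had 269, 199, 247, 232, 208 and 167 CPM, with overlapping intervals for most pairs, and library 1 was 1.61 times library 6 (1.09 to 2.39). Among all genes tested in pericyte-like cells, 42.7% had a highest library at least 2 times the lowest on the CPM + 10 scale, and of the members Ednrb (4.14) and Ece1 (3.44) did, whereas Ednra had 1.57. In thinned cells 22.0% of pericyte-like, 37.9% of response and 19.3% of smooth muscle-like cells had an Ednra UMI, against 0.0123% of microglia-like cells, a class without known use of the gene. The unthinned shares were 49.9%, 81.0%, 64.3% and 0.0246%, at median depths of 3227, 4973, 7444 and 5150 UMIs.

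The pooled ratio of pericyte-like to smooth muscle-like cells, 1.35 (1.15 to 1.58), was not seen beyond counting error inside any single library. It was 0.980 (0.748 to 1.30) in library 3, 1.33 (0.848 to 2.17) in library 4, 1.24 (0.876 to 1.74) in library 5 and 1.33 (0.878 to 2.02) in library 6, and libraries 1 and 2 had 2 and 4 smooth muscle-like cells. In smooth muscle-like cells, library 3 had 252 CPM and library 6 had 126 CPM, a ratio of 2.01 (1.38 to 2.94). The classes shown here took the names of mural cells from their own clustering. With the clustering of all cells alone, which leaves the response subcluster among smooth muscle-like cells, these came first, 1.11 times above pericyte-like cells (0.987 to 1.25).

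Ednra was higher in the response subcluster than in the other pericyte-like cells of the same library: 561 against 232 CPM in library 4, a ratio of 2.42 (1.74 to 3.34), and 379 against 167 CPM in library 6, a ratio of 2.27 (1.56 to 3.33). Neither reached 4 times. For comparison, 12.7% of all genes tested lay above the other pericyte-like cells beyond counting error, with libraries 4 and 6 pooled. Inside the mural cells outside the response subcluster, levels went from 93.3 CPM in subcluster 8, in which the endothelial genes Ly6c1 and Cldn5 were leading and 45.5% of cells were called as doublets, to 362 CPM in subcluster 9, a group of 27 cells between pericyte and smooth muscle that stayed unnamed.

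Ednrb, the receptor that binds all endothelins, is one of the genes that the study lists for its own stroke-specific pericyte state on these samples, so its level in the response subcluster is a description and not independent evidence. There it had 3609 CPM (3403 to 3824), from 1147 UMIs in 50 of 58 cells, with a median of 20.5 UMIs in a cell that had any and 101 in the highest. Library 4 had 3038 CPM and library 6 had 3920 CPM, 1.29 times more (1.14 to 1.47). The other pericyte-like cells had 56.1 CPM (47.5 to 65.9), from 149 UMIs in 75 of 782 cells. Within libraries the ratio was 51.9 (34.8 to 80.6) in library 4 and 78.6 (46.6 to 144) in library 6. Of all genes tested, 1.07% were at least 4 times higher in the response subcluster than in the other pericyte-like cells on the CPM + 10 scale, and 1.21% when those cells came from libraries 4 and 6 alone. Ednrb passed with 54.7 and 55.5, and no other member did. After thinning, 77.6% of response, 3.20% of other pericyte-like and 0.258% of microglia-like cells had an Ednrb UMI, against 86.2%, 9.59% and 1.64% before.

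**Figure D4:**
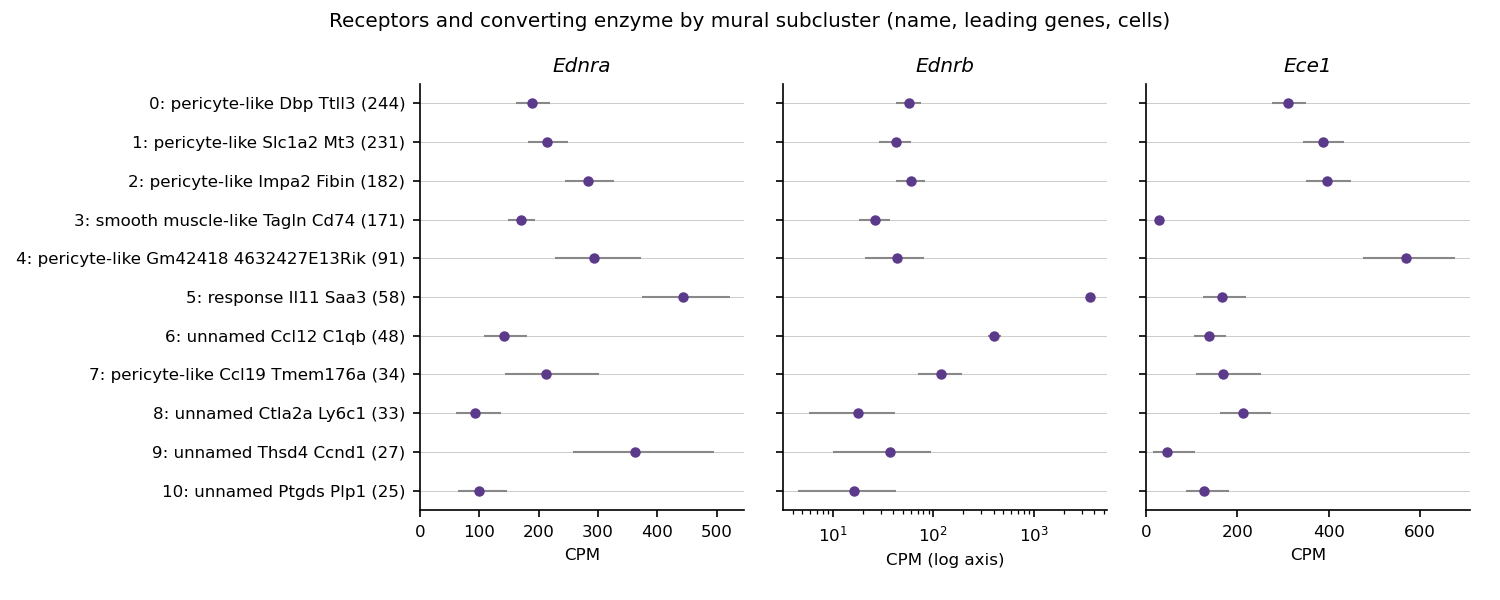
CPM of Ednra, Ednrb and Ece1 (horizontal axes, linear for Ednra and Ece1 and logarithmic for Ednrb) in the 11 mural subclusters, with exact 95% intervals for counting error; each line gives the subcluster number, its name, its leading genes and its cells. Ednrb is at 3609 CPM in the response subcluster and at 16.5 to 406 CPM in the others, Ednra is highest there too (444 CPM), and Ece1 is lowest in smooth muscle-like cells (28.7 CPM).

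Astrocyte-like cells were the main holder of Ednrb elsewhere. Their level was 395 CPM (380 to 409), from 2873 UMIs in 832 of 1168 cells. With all libraries pooled this was 9.14 times below the response subcluster (8.53 to 9.79), which came from libraries 4 and 6 alone. Within those libraries the ratio was smaller, 6.48 (5.72 to 7.34) in library 4 and 7.45 (6.55 to 8.49) in library 6. Astrocyte-like cells of libraries 1 to 6 had 327, 457, 301, 469, 486 and 526 CPM. Libraries 1 and 3 were the lowest, and library 6 was 1.75 times library 3 (1.53 to 1.99). On the CPM + 10 scale this was 1.72, while 33.1% of all genes tested in astrocyte-like cells reached 2. Of the members Edn1 (2.73) and Ece1 (2.12) did so, from 61 and 324 UMIs. For Edn1, 23 of these UMIs were in 1 cell of library 3, its highest library. For Ece1 the lowest library, 5, had 4 UMIs, and the ratio of library 6 to library 5 was within counting error (2.69, 0.958 to 10.4). Astrocyte-like cells were the highest class in the 4 libraries that had no response subcluster. The larger of their clusters (744 cells, led by Aldoc, Clu and Mt3) had 454 CPM and the other (424 cells, led by Trim9, Nwd1 and Gria2) 224 CPM. The intervals of these clusters did not overlap in libraries 1 to 4, while in library 6 they had 523 and 538 CPM, and library 5 had too few cells.

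The other classes had low levels. Monocyte-derived macrophage-like cells had 40.5 CPM (34.0 to 47.9), perivascular macrophage-like cells 24.0 CPM, smooth muscle-like cells 26.4 CPM, neuroblast-like cells 19.3 CPM, endothelial-like cells 7.10 CPM and microglia-like cells 3.42 CPM. Of the 375 monocyte-derived macrophage-like cells, 122 came from library 4 and 235 from library 6. Their levels were 50.2 and 37.5 CPM, and free RNA of these libraries had 54.8 and 43.1 CPM. A UMI was found in 61 of 375 cells. In those 61 cells the 8 astrocyte markers summed to 40.9 CPM and the 8 pericyte markers to 4.55 CPM, against 54.8 and 4.05 CPM in the 314 without. The astrocyte list was thus lower in the carriers and the pericyte list near 0 in both. After thinning, 3.47% of these cells and 0.258% of microglia-like cells had an Ednrb UMI, at median depths of 8830 and 5150 UMIs. In smooth muscle-like cells the 34 UMIs lay in 5 cells, all in libraries 4 and 6, with 13 UMIs in 1 cell of each. In those 5 cells, 4 of the 8 pericyte markers were at 0, and the list summed to 318 CPM against 2809 CPM in the other smooth muscle-like cells, while their smooth muscle markers summed to 19825 against 42416 CPM. Il11, among the leading genes of the response subcluster, had 27 UMIs in 2 smooth muscle-like cells of library 6, with 26 in 1 cell. Whether these are among the 5 cells was not tested. Free RNA held Ednrb at 20.6 to 66.5 CPM. Perivascular macrophage-like cells had 77.0 CPM in library 5, where free RNA had 20.6 CPM, and 9.49 CPM in library 6, where free RNA had 43.1 CPM.

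Ednrb is known from endothelium of other organs, and here 46 of 2664 endothelial-like cells (1.73%) had a UMI, close to the 1.64% of microglia-like cells, at median depths of 4001 and 5150 UMIs. Library 6 had 14.8 CPM and library 3 had 2.08 CPM, a ratio of 7.14 (3.03 to 20.5) that rests on 44 and 6 UMIs, 12 of them in 1 cell of library 6. Among the endothelial subclusters the highest was subcluster 10 with 46.3 CPM. The pericyte genes Vtn, Rgs5 and Higd1b were among its leading genes, and 9 of its 15 UMIs were in 1 cell. The lowest with a UMI was subcluster 4, with 1 UMI, which gives a ratio of 51.0 (7.84 to 2145). That ratio rests on few UMIs and moved from 8.98, with the members among the variable genes, to 87.7, with the filters of the study alone. It was 19.5 at resolution 0.4, 18.6 after thinning, and 19.8, 30.3 and 17.7 without library 3, 5 or 6.

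In pericyte-like cells outside the response subcluster, libraries 1 to 6 had 24.8, 134, 53.5, 58.6, 35.6 and 49.9 CPM of Ednrb. Library 2 was the highest, 5.40 times library 1 (2.22 to 15.8), from 31 UMIs in 11 cells with 10 in 1 cell, and without that cell it had 92.4 CPM. In these remaining cells libraries 4 and 6, which held the response subcluster, had intervals that overlapped those of libraries 1, 3 and 5. The astrocyte-like level was 3.41 to 13.7 times the pericyte-like one within the 6 libraries. Free RNA of libraries 1 to 6 had 66.5, 53.1, 29.5, 54.8, 20.6 and 43.1 CPM of Ednrb. In library 1 this was above the pericyte-like level, and in libraries 4 and 6 it was close to it. A like CPM does not give the part of free RNA in the cells, which was not tested. Microglia-like cells had 1.88 to 6.76 CPM of Ednrb across the libraries. In the mural subclusters, the next highest after the response subcluster was subcluster 6, with 406 CPM in 48 cells, led by microglial genes and with 52.1% of its cells called as doublets.

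Both receptors were looked for in the same cells. In the response subcluster 40 of 58 cells had UMIs of both Ednra and Ednrb, 57 had at least 1 of them, and after thinning 81.8% of the cells with Ednra had Ednrb (interval 59.7 to 94.8%) against 75.0% of those without (57.8 to 87.9%). In the other pericyte-like cells the shares were 2.91% (0.950 to 6.65%) and 3.28% (2.01 to 5.02%). In astrocyte-like cells, Ednra was found in 0.601% of the thinned cells with Ednrb and in 0.958% of those without. The 62 astrocyte-like cells with an Ednra UMI had 468 CPM of pericyte markers, against 120 CPM in the others, and the part of this in the astrocyte-like Ednra level was not tested.

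Ece1, the activating protease, was shared by pericyte-like, fibroblast-like and endothelial-like cells, but not by smooth muscle-like cells at a like level. Pericyte-like cells had 368 CPM (345 to 391.7), fibroblast-like cells 354 CPM (276 to 447) and endothelial-like cells 292 CPM (283 to 302). Pericyte-like and fibroblast-like cells did not differ beyond counting error (ratio 1.04, 0.815 to 1.34), nor did fibroblast-like and endothelial-like cells, while pericyte-like cells were 1.26 times above endothelial-like cells (1.17 to 1.35). Without library 6 the pericyte-like level was below the fibroblast-like one, with a ratio of 0.731 (0.563 to 0.966). Smooth muscle-like cells had 28.7 CPM, 12.8 times below pericyte-like cells (9.22 to 18.3), although both are mural cells. In the libraries with at least 20 cells of both, the ratio was 8.97 in library 3, 9.31 in library 4, 23.6 in library 5 and 4.21 in library 6 (2.24 to 8.38). Astrocyte-like cells had 44.5 CPM, neutrophil-like cells 33.7 CPM, perivascular macrophage-like cells 28.2 CPM and microglia-like cells 6.17 CPM, with free RNA at 25.6 to 35.4 CPM. Of the astrocyte-like cells, the 244 with an Ece1 UMI had 535 CPM of the 8 endothelial markers and the 924 without had 42.7 CPM, and the part of this in the astrocyte-like level was not tested.

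The order of pericyte-like and endothelial-like cells changed with the library. Pericyte-like cells of libraries 1 to 6 had 497, 515, 405, 338, 279 and 142 CPM, and endothelial-like cells 305, 363, 275, 349, 240 and 303 CPM. Pericyte-like cells were above endothelial-like cells in libraries 1, 2 and 3, by 1.63 (1.28 to 2.06), 1.42 (1.13 to 1.78) and 1.47 times (1.31 to 1.65). They did not differ beyond counting error in libraries 4 and 5, and in library 6 pericyte-like cells were lower, with a ratio of 0.470 (0.334 to 0.645). Between the libraries, the pericyte-like level of library 2 was 3.61 times that of library 6 (2.51 to 5.31). The summed pericyte markers were also lowest in library 6, with 25995 CPM against 27474 to 37018 CPM in the others, and their part in the Ece1 difference was not tested.

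Within one subcluster the same spread was seen. Mural subcluster 0 (led by Dbp and Ttll3) had 436, 499, 273 and 154 CPM in libraries 1, 2, 5 and 6. In thinned cells, 37.2%, 38.8%, 32.2%, 29.3%, 22.9% and 8.86% of the pericyte-like cells of libraries 1 to 6 had an Ece1 UMI, against 0.713% of microglia-like cells. No class is known to lack Ece1, so that share is only a low level for comparison.

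The response subcluster had 167 CPM of Ece1 (125 to 218), 0.453 times the other pericyte-like cells of all libraries (0.337 to 0.598). Against the pericyte-like cells of its own library the difference was smaller: the ratio was 0.686 (0.434 to 1.04) in library 4 and 0.922 (0.544 to 1.54) in library 6, within counting error in both. With both libraries pooled it was 0.636 (0.460 to 0.867). Their library values averaged with equal weight gave 0.756. The lower level was thus not shown inside a library.

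Among endothelial subclusters, Ece1 was highest in subcluster 8, led by Kit, Adm and Adamts4, with 600 CPM (531 to 676), and lowest in subcluster 2 with 207 CPM, a ratio of 2.90 (2.47 to 3.42). Of the 115 cells of subcluster 8, 92.2% came from library 4, and without library 4 the ratio of the highest to the lowest subcluster fell to 1.86. Arterial-like cells had 301 CPM and venous-like cells 274 CPM, with overlapping intervals, unlike Edn1 and Edn3. In thinned endothelial-like cells of all libraries pooled, 25.1% of cells with Edn1 (21.2 to 29.2%) and 24.1% of those without (22.3 to 26.0%) had Ece1. The shares went opposite ways in library 1 (13.2% with Edn1 against 30.3% without) and library 2 (52.5% against 30.5%). Their intervals overlapped in every library.

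The remaining genes of the pathway came from lists chosen for their role. Edn2, the other ligand gene, had 1 UMI in all named classes. Of 5 other converting or degrading enzymes (Ece2, Ecel1, Mme, Kel, Mmel1), none reached 50 CPM in any class. Mme, the gene of neprilysin, a peptidase, had 16 UMIs in all. Of 15 genes of receptor signalling, 12 reached 50 CPM, and none had a highest class at least 4 times above the next. Plcb4 and Rock1 were highest in smooth muscle-like cells (232 and 1004 CPM), and Gna11, Itpr1 and Itpr2, a G protein and calcium release channels, in pericyte-like cells (207, 299 and 236 CPM).

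In the response subcluster, 5 of 12 signalling genes with enough UMIs lay below the other pericyte-like cells of libraries 4 and 6 beyond counting error and none above, with a median ratio of 0.768. Of all genes tested in this way 19.9% lay below and 12.7% above, and the median ratio was 0.885. These 5 were Gna11 (0.591), Gna12 (0.420), Plcb4 (0.107), Itpr1 (0.269) and Itpr2 (0.194). Plcb4, Itpr1 and Itpr2 lay below within each of the libraries. Gna11 did so in library 4 and was within counting error in library 6 (0.671, 0.411 to 1.07), and Gna12 was within it in both, with 7 UMIs in the response subcluster. Rock1, a kinase that keeps vessel cells contracted, had a ratio of 0.946 (0.731 to 1.21), but 0.552 (0.317 to 0.908) in library 4 and 1.12 (0.807 to 1.54) in library 6. For the GTPase gene Rhoa and the kinase gene Rock2 the intervals held 1 in the pool and in both libraries. The G protein brakes Rgs4 and Rgs5 had ratios of 0.451 and 0.274 with both libraries pooled. Rgs4 had 0.651 in library 4 and 0.312 in library 6, and Rgs5 had 0.381 and 0.254. Rgs2, a brake of the same family whose highest level was in microglia-like cells (777 CPM), had 11 UMIs in the response subcluster against 4, too few for the minimum of 20 UMIs set for these ratios, and 7 of the 11 were in library 4. Of 5 listed genes of vessel relaxation, the 3 with enough UMIs lay below, Gucy1a1 (0.192), Gucy1b1 (0.244) and Prkg1 (0.424), beside the same 19.9% of all genes. Gucy1a1 and Gucy1b1 lay below in both libraries, and Prkg1 in library 4 (0.268) but not beyond counting error in library 6 (0.607, 0.280 to 1.24).

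**Figure D5:**
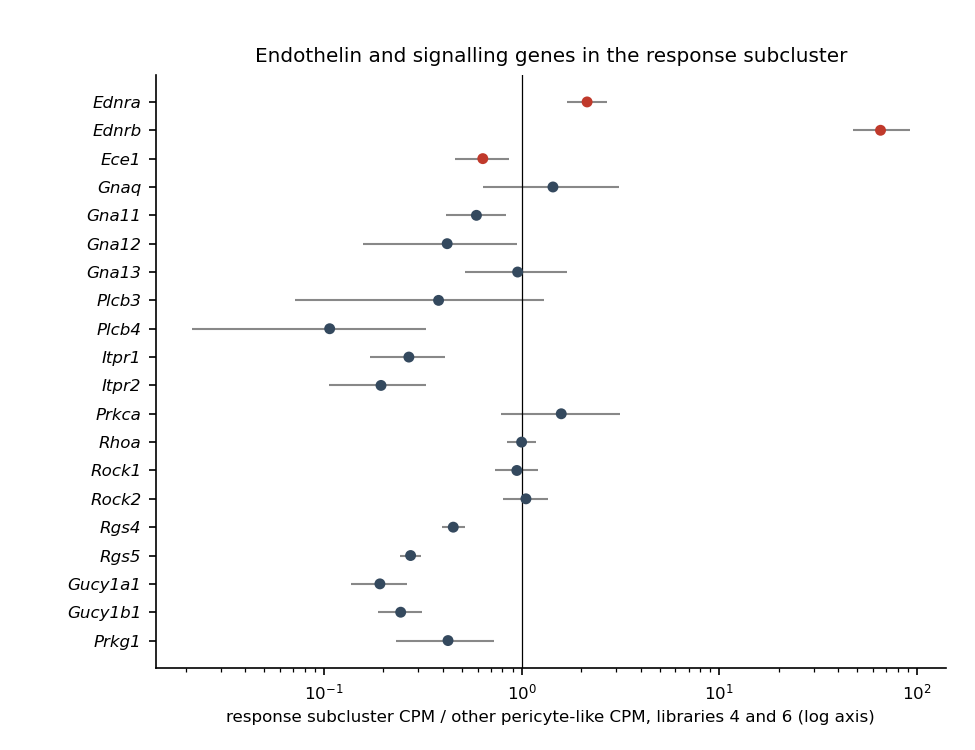
Ratio of CPM in the response subcluster to CPM in the other pericyte-like cells of libraries 4 and 6 (horizontal axis, logarithmic) for members (red) and other pathway genes (dark) with at least 20 UMIs in the 2 groups together and at least 1 in the response subcluster, with exact 95% intervals for counting error. Ednrb stands at 65.4 and Ednra at 2.14, while Plcb4, Gucy1a1, Itpr2, Gucy1b1, Itpr1 and Rgs5 lie between 0.107 and 0.274.

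Genes with a like pattern were sought over 53 sums of cells, each 1 class in 1 library, by Pearson's r of log2(CPM + 10) among 9418 genes. The sums held 13 classes. Fibroblast-like cells, with under 20 cells in every library, were left out, so Edn3 was compared without its highest class. Ece1, with 354 CPM in fibroblast-like cells, was compared without them too. The sums of a library share its depth and preparation, so these values are descriptions. Edn1 was nearest to Slc39a8 (0.953), Cmtm8 (0.947) and Rnf144b (0.930), and Edn3 to Gm9946, Crispld1 and Gkn3 (0.976 each). Ednra was nearest to the chloride channel gene Ano1 (0.979), Kcne4 (0.970) and Cox4i2 (0.969), Ece1 to Fzd6 (0.939), Foxf2 (0.908) and Emcn (0.907), and Ednrb to Cyp7b1 (0.788), Sh3pxd2b (0.775) and Alpk1 (0.775). The pattern of Ednrb thus had no neighbour as close as the other members had.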

How the data were processed

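The authors deposited 1 unfiltered matrix of UMI counts for all 6 libraries, made with Cell Ranger 5.0.1 per the file header and aggregated to normalize depth. The submitters' processing notes name mm10. Their methods give 3 mice for this sequencing and do not say how mice map to libraries. Members and gene lists were chosen with earlier results of these data known.

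In each library the 3000 deepest barcodes were taken, and every barcode with at least 0.1 of their 99th percentile of UMIs was called a cell, 18468 in all. Those with under 200 features or over 10% mitochondrial counts were removed, as in the methods. Counts were log-normalized, and 2000 variable genes, without the members and listed genes, 30 principal components (15 for mural and endothelial cells), 20 neighbours and Leiden clustering at resolution 0.8 followed. Clusters were named by their best marker score, with at least 3 markers raised 2 times. It stayed unnamed if the score led by under 1 (log2), if over 50% of its cells were doublets or if over 5% of its UMIs were hemoglobin. These limits, and the separate class for the response subcluster, were set after the data had been seen. Cell names were rebuilt here, and where they differ from those of the study, so can the values. Scrublet in scanpy called 1.90% of cells doublets (0.972 to 2.95% per library), and they were kept. Mature neuron markers were low, with at most 6.43 CPM over all cells.

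Ratios of summed counts had conditional binomial intervals, levels Poisson and shares Clopper-Pearson intervals. A count of 0 was given a limit of 3 counts. Shares were compared after thinning to 1000 UMIs, and no cell was shallower. Each class by library value needed 20 cells and each endothelial subcluster ratio 50. Genes named are the members, the listed genes, the markers, leading genes of clusters and, for each member, the 3 most alike. The steps were tested on simulated data. Python 3.11.15, numpy 2.4.6, scipy 1.17.1, scanpy 1.11.5, igraph 0.11.9 and leidenalg 0.10.2 were used. Alternatives were the cell call, the resolution, doublets, scaling, depth, the variable genes, the smallest class and leaving out each library.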

Additional observations from a re-analysis of the deposited data

Results flagged for a closer look

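The 1111 called barcodes that the mitochondrial filter removed entered no comparison, and members were found in them above the limit that a count of 0 allows. Ednrb had 46.8 CPM (39.5 to 55.0), Ece1 24.97 CPM (19.8 to 31.1), Edn1 14.5 CPM (10.6 to 19.4), Ednra 6.01 CPM (3.62 to 9.38) and Edn3 1.58 CPM (0.513 to 3.69). These barcodes hold all classes mixed and were not named.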

How the results depend on the processing

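Of 213 values recomputed for 17 results, 185 stayed within the interval of the reported value and 28 left it. No value with an interval clear of 1 turned, but this check was limited. The ratios between endothelial subclusters took the highest and the lowest anew in each setting, so they could not fall below 1. The highest class itself changed for Edn3, Ednra, Ednrb and Ece1 in settings given here and below. For Ece1, fibroblast-like cells then stood above pericyte-like cells, and the reported levels of these classes did not differ beyond counting error. With the study's filters alone or at resolution 1.2, the endothelial subclusters differed 2.14 and 2.19 times in Ece1. At resolution 0.4 the Edn1 subclusters differed 5.26 times, with members among the variable genes 13.7 times and after thinning 12.996 times, then with subcluster 7 the highest. The mean of the cells' own CPM gave 8.78 for Edn1 in endothelial-like over microglia-like cells and 3.21 between its libraries. Thinning gave 92.6 for Ednrb and 0.325 for Ece1 in the response subcluster over other pericyte-like cells. With classes of at least 50 cells, Edn3 was 51.6 times above the next class.

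Added after the data had been seen, the clustering of all cells alone gave 1.11 for Ednra (smooth muscle-like over pericyte-like cells) and 1.59 for Ednrb (smooth muscle-like over astrocyte-like cells), both with the response cells among smooth muscle-like cells. That clustering gave 1.04 for Ece1 (fibroblast-like over pericyte-like cells, 0.804 to 1.32). Equal weights for libraries gave 2.36 for Ednra, 6.996 for Ednrb over astrocyte-like cells and 0.756 for Ece1 in the response subcluster.

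Leaving out each library in turn gave a lowest and highest ratio to the next class of 8.24 and 10.1 for Edn1, 6.25 and 8.68 for Edn3, 1.66 and 2.38 for Ednra, 7.95 and 10.8 for Ednrb and 0.731 (without library 6) and 1.30 for Ece1. The ratios of response to other pericyte-like cells were 1.66 to 2.38 for Ednra, 53.5 to 74.2 for Ednrb and 0.351 to 0.587 for Ece1, and 0 for Edn1 and Edn3. Those between endothelial subclusters were 8.86 to 14.3 for Edn1, 17.7 to 56.0 for Ednrb and 1.86 to 3.39 for Ece1. The cause of these shifts was not tested. No paired analysis was possible because the library numbers are not mapped to the groups in the sources used here. Fibroblast-like cells gave no library ratio for Edn3. Depth limits the low levels of Ednrb and Edn3, most of which rest on fewer than 100 UMIs.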
